A study of Mus musculus with 6 samples.

Results

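The genes described here are 5 ligands of the bone morphogenetic protein (BMP) family, Bmp2, Bmp4, Bmp5, Bmp6 and Bmp7, and 5 of their receptors, Bmpr1a, Bmpr1b, Acvr1, Acvrl1 and Bmpr2. They were taken by symbol from a table of 30323 Ensembl gene IDs, all 10 had a single row there, and all 10 passed the filter on low counts. Not every BMP ligand is among them. Whole mouse hearts of embryonic day 9.5 gave the RNA, in 3 libraries labelled as C57BL/6 controls and 3 libraries with the genotype CDC-42 KO, called MCKO for myocardial Cdc42 knockout. Cdc42 is a small GTPase that organises actin and cell polarity. The sources used here name neither the Cre line that deletes it nor the exon lost, and they do not tie a library to a heart or litter. The comparison asks how BMP signalling genes differ between whole MCKO and control hearts.

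BMPs are secreted dimers that bind a complex of type I and type II receptors on the cell surface. The type II receptor phosphorylates the type I receptor, which in turn phosphorylates SMAD1, SMAD5 or SMAD9, and these enter the nucleus with SMAD4. In the looping heart, BMP from the muscle of the atrioventricular canal induces the endocardium beneath it to form cushion mesenchyme, and BMP in the outflow region acts on cells that are being added to the heart tube. Acvrl1 acts mainly in endothelium.

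The 6 libraries held 19256840 to 34246477 estimated counts, and values below are in CPM, a library's counts scaled to its total. Cdc42 had 377.3 to 423.7 CPM in controls and 238.5 to 247.6 CPM in MCKO. On the log2 scale the difference was -0.66 (SE 0.047; adjusted p by edgeR = 2.93e-06). Heart muscle markers were abundant in every library, with a sum over 12 genes of 37673 to 41351 CPM in controls and 44138 to 45805 CPM in MCKO. By edgeR at an adjusted p under 0.05, 5 of the 12 were higher and 2 lower in MCKO. Their median log2 fold change was 0.14. Much of the rise in the sum was Myh7, with means of 6332 CPM in controls and 10131 CPM in MCKO. Because the hearts were whole, fewer cells of a type and less RNA per cell cannot be told apart.

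Of the 4 members with the largest changes, 3 were receptors. By edgeR's quasi-likelihood test, 7 of the 10 genes passed an adjusted p of 0.05, 5 of them higher and 2 lower in MCKO. Over all 14697 genes tested, 58.4% passed, 29.3% higher and 29.1% lower, so the members' share lay near that of all genes. The median log2 fold change was 0.17 for the members and 0.00 for all tested genes. Bmpr1b fell 4.79-fold, and Bmp6, Acvrl1 and Bmpr1a rose 1.86-, 1.74- and 1.57-fold. The other 6 members had log2 fold changes under 0.2 in size.

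**Figure D1:**
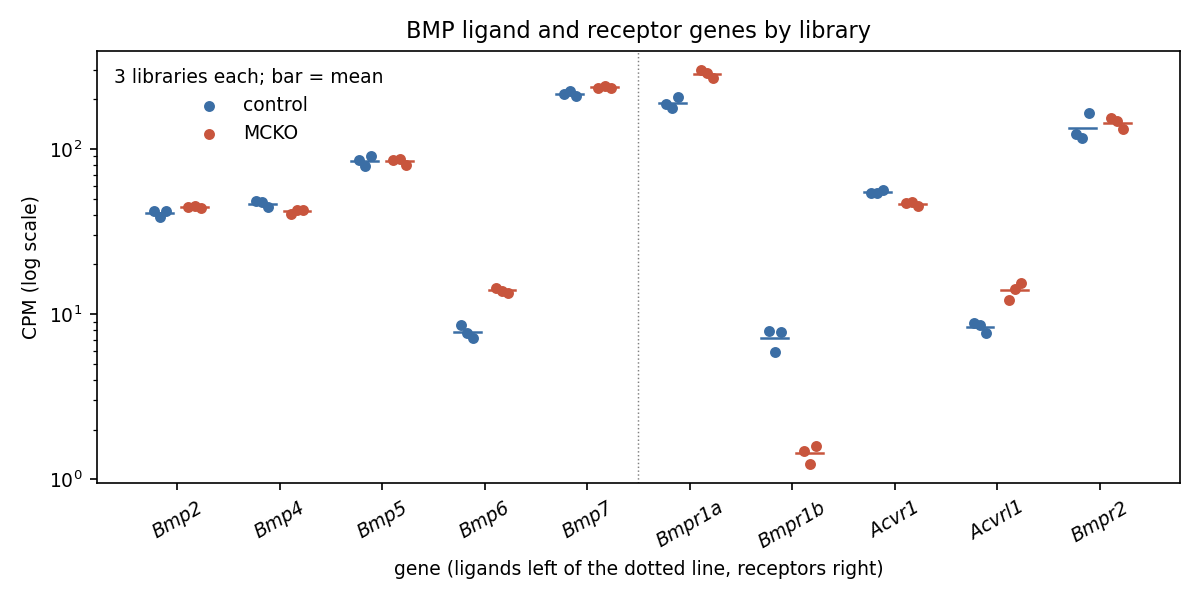
CPM on a log axis of the 10 genes in each of the 6 libraries, with the mean of each group as a bar. The 3 MCKO libraries of Bmpr1b sit between 1.24 and 1.59 CPM, below all controls, while those of Bmp6, Bmpr1a and Acvrl1 sit above all controls.

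Upstream sequences are given for Bmpr1b, the receptor with the largest difference, and for Bmp4, a ligand that was not called. Each is the 250 bases before a transcript start in RefSeq on GRCm38.p6, written 5′ to 3′ on the gene's strand. RefSeq's table had an entry for 7 of the 10 members, and windows that overlap an annotated exon of their gene are described without their letters. So is the Bmpr1b window of 52.8% G or C, which overlaps no exon. The first bases after its start were not found in a GENCODE transcript. Capitals mark ACGTG or GCGTG, the core letters bound by hypoxia-inducible factors, and GGCGCC, GC-rich letters bound by BMP SMADs, on either strand.
Bmp4, chr14:46390670-46390919, minus strand: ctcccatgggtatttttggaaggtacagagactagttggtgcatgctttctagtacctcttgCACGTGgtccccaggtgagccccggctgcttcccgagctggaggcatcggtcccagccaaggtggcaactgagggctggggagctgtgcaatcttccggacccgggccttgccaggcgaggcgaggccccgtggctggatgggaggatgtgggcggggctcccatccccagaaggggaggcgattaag
Bmpr1b, chr3:141982265-141982514, minus strand: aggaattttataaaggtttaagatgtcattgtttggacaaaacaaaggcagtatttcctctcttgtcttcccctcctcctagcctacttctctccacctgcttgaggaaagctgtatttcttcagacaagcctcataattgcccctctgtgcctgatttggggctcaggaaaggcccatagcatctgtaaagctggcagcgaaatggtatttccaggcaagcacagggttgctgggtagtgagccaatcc

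The Bmp4 window, just upstream of the annotated gene, was 63.2% G or C with 11 CpG pairs. It held CACGTG, in which ACGTG reads on both strands and overlaps itself. Bmpr1b has 3 entries in the table. The one shown lies inside the annotated gene, before an internal start whose first bases were found in a GENCODE transcript, and it was 46.8% G or C with 1 CpG pair. The other Bmpr1b windows were 56.4% and 52.8% G or C with 5 CpG pairs each, and none of the 3 held the letters searched. The single Bmpr1a window was 78.8% G or C with 36 CpG pairs and held 1 GGCGCC. Of its bases, 141 lay within annotated exons of the gene. The Bmp6 window held 2 matches to ACGTG, counting both strands, and 1 GCGTG, and all 250 of its bases lay within an annotated exon of the gene. In the windows of the other members, Acvr1 held 1 GCGTG, Bmpr2 held 1 GGCGCC, and Bmp5 held none of these letters. All 250 bases of the Acvr1 window and of the Bmpr2 window also lay within annotated exons of their genes. Of 27025 promoters of the same length, 1 per gene, 16.6% held ACGTG, 28.2% GCGTG and 9.54% GGCGCC. A match of letters is a description and not a binding site.

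Bmp6 was the ligand with the largest difference. Bmp6 (ENSMUSG00000039004), chromosome 13, plus strand, 38345107 to 38500302 in GRCm38, encodes a close relative of BMP5 and BMP7 that is known in the adult for its control of iron uptake through the liver. The control values were 8.56, 7.63 and 7.21 CPM, against 14.5, 13.8 and 13.5 CPM for MCKO. All MCKO libraries lay above all controls. The fitted log2 difference was 0.90 (SE 0.091; adjusted p by edgeR = 2.94e-05). The gene lies across the oppositely oriented Txndc5 gene, which had 25857 counts over the controls and 21695 over the MCKO group.

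Bmp7, the most abundant of the 5 ligands, rose slightly. Bmp7 (ENSMUSG00000008999) lies at 172868012 to 172940321 of chromosome 2, minus strand, and its product acts redundantly with BMP5 in the early heart. It held 215, 223 and 209 CPM in controls and 235, 239.7 and 235 CPM in MCKO. The groups did not overlap, as was the case for 8 of the members and for 65.5% of all tested genes. On the log2 scale the difference was 0.20 (SE 0.041; adjusted p by edgeR = 0.00262).

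Bmp2 rose by a similar amount, with less certainty. Bmp2 (ENSMUSG00000027358), chromosome 2, plus strand, 133552159 to 133562885, encodes the ligand of atrioventricular canal muscle that starts cushion formation. Its controls were at 42.1, 38.5 and 42.0 CPM, and MCKO was at 44.7, 45.3 and 44.0 CPM. The lowest MCKO library lay just above the highest control. The fitted log2 difference was 0.19 (SE 0.052; adjusted p by edgeR = 0.0116), and with library totals as the only scaling the call was lost (0.12, adjusted p = 0.069). In the same libraries 7 of 9 cushion mesenchyme markers fell and none rose, their sum going from 714 to 739.5 CPM in controls to 282.5 to 295 CPM in MCKO. The part of these cells in the Bmp2 values was not tested.

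Bmp4 and Bmp5 did not pass the test. Bmp4 (ENSMUSG00000021835), chromosome 14, minus strand, 46383520 to 46390669, encodes a ligand of the outflow tract and second heart field. It held 48.2, 47.5 and 44.5 CPM in controls and 40.5, 42.7 and 42.7 CPM in MCKO. The MCKO libraries were all below the controls on this scale. After TMM scaling the fold was 0.937, with a 95% interval of 0.862 to 1.02 and an edgeR adjusted p of 0.167. With library totals as the only scaling Bmp4 was called lower (log2 fold change -0.15, adjusted p = 0.03). All 9 second heart field and outflow tract markers differed, 6 higher and 3 lower, and their part in the Bmp4 values was not tested.

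Bmp5 (ENSMUSG00000032179), chromosome 9, plus strand, 75775364 to 75900310, held 85.7, 78.3 and 91.1 CPM in controls and 86.1, 87.3 and 80.1 CPM in MCKO. The groups overlapped. The fold was 1.04 with a 95% interval of 0.944 to 1.14 (edgeR adjusted p = 0.489), and its sign turned with library totals alone (-0.01 on the log2 scale) and without control replicate 2. An antisense gene, Gm26903, shares 49.2% of the longest Bmp5 transcript on the other strand and has no row in the table, so reads of the pair are separated only if strand was used in the counting, which the sources used here do not give.

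**Figure D2:**
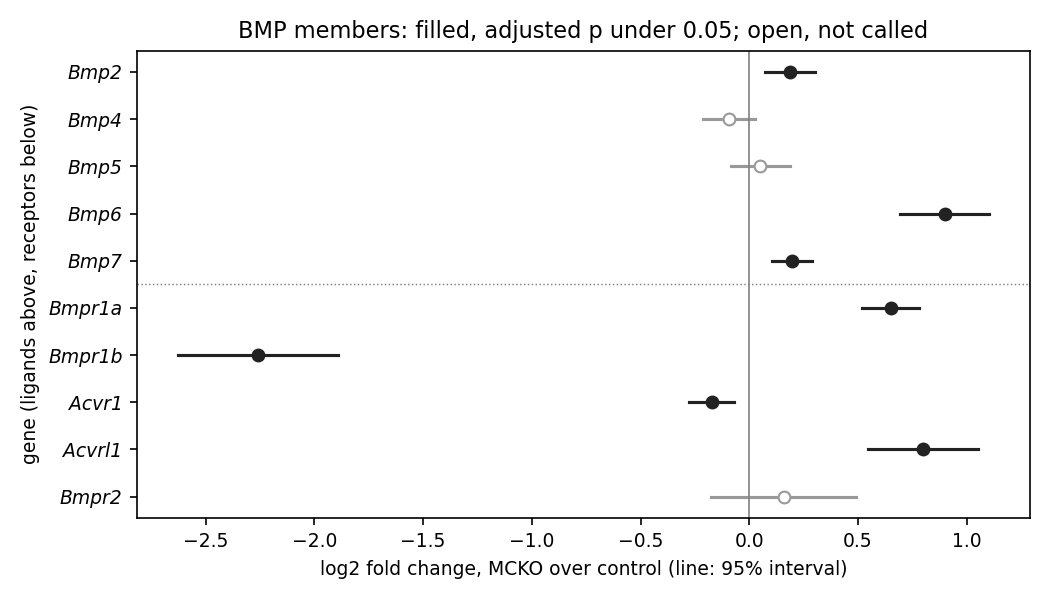
Log2 fold change of each gene, MCKO over control, with its 95% interval, filled where the adjusted p was under 0.05. Bmpr1b stands at -2.26, Bmp6, Acvrl1 and Bmpr1a at 0.90, 0.80 and 0.65, and the intervals of Bmp4, Bmp5 and Bmpr2 include 0.

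Among the type I receptors, Bmpr1b had the largest difference of all 10 members. Bmpr1b (ENSMUSG00000052430), chromosome 3, minus strand, 141837136 to 142169425, encodes a receptor best known from the cartilage of the limb skeleton. Controls held 7.93, 5.92 and 7.74 CPM, from 214, 114 and 249 counts. MCKO libraries held 1.49, 1.24 and 1.59 CPM, from 51, 32 and 38 counts. The highest MCKO library lay well below the lowest control. On the log2 scale the difference was -2.26 (SE 0.16; adjusted p by edgeR = 3.52e-06), with a 95% interval of -2.63 to -1.89. Of all tested genes, 97.9% had a smaller difference in either direction. In the same libraries the epicardial and proepicardial markers fell (6 of 7 tested, none higher, the sum of 8 going from 203 to 213 CPM to 82.7 to 85.0 CPM), as did the cushion mesenchyme markers above and 6 of 7 tested liver bud markers (2 when 50 counts in 3 libraries were required). Which cells carry Bmpr1b in these hearts, and the part of those lists in its fall, was not tested.

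Bmpr1a, the other receptor of that type for BMP2 and BMP4, changed the opposite way. Bmpr1a (ENSMUSG00000021796), chromosome 14, minus strand, 34410734 to 34503341, encodes a type I receptor that heart muscle and endocardium both need. It held 187, 177 and 205 CPM in controls and 299, 287 and 269 CPM in MCKO. Every MCKO library lay above every control. The fitted log2 difference was 0.65 (SE 0.059; adjusted p by edgeR = 1.47e-05), and the 95% interval of the fold was 1.43 to 1.72.

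Acvr1 fell slightly. Acvr1 (ENSMUSG00000026836), chromosome 2, minus strand, 58388644 to 58567157, encodes the type I receptor that BMP6 and BMP7 favour. It stood at 54.1, 53.7 and 56.1 CPM in controls, against 46.7, 47.6 and 45.1 CPM for MCKO, with no overlap. On the log2 scale the difference was -0.17 (SE 0.046; adjusted p by edgeR = 0.00938), a fall of 1.13-fold.

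Acvrl1 rose. Acvrl1 (ENSMUSG00000000530), chromosome 15, plus strand, 101128522 to 101145336, encodes the endothelial type I receptor whose loss causes vascular malformations. Its controls were at 8.86, 8.62 and 7.65 CPM, and MCKO was at 12.1, 14.3 and 15.5 CPM. The groups did not overlap, and the MCKO libraries differed more among themselves than the controls. The fitted log2 difference was 0.80 (SE 0.11; adjusted p by edgeR = 0.000237). Of 12 endothelial and endocardial markers, 9 rose and 2 fell. Their median was 0.43, and their sum was 1250 to 1267 CPM in controls and 1428 to 1459 CPM in MCKO. Pecam1, an adhesion molecule of endothelium, had a log2 fold change of 0.70 (SE 0.039, edgeR adjusted p = 6.63e-07). Flt1 rose by 1.36 (SE 0.040). The 2 that fell were Tek, at -0.70 (SE 0.051), and Npr3, at -0.92 (SE 0.053). The part of endothelial RNA in the Acvrl1 values was not tested, nor in those of Bmp6.

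The type II receptor gene Bmpr2 was not called, and that rested on 1 library. Bmpr2 (ENSMUSG00000067336), chromosome 1, plus strand, 59763400 to 59879014, encodes the BMP type II receptor with a long cytoplasmic tail. It held 122, 117 and 165 CPM in controls and 153, 149 and 131 CPM in MCKO, so that control replicate 3 was the highest of all 6. The fold was 1.12 with a 95% interval of 0.887 to 1.40 (edgeR adjusted p = 0.362). Without control replicate 3 the log2 fold change was 0.33 and passed the test (edgeR adjusted p = 0.000821). The transcript of Bmpr2 is 12899 bases long. In 355 tested genes with a transcript of 10 kb or more, control replicate 3 stood a median of 0.11 (log2) above the other controls, against 0.01 over all 14091 tested genes with a protein-coding transcript. Control replicate 2 stood 0.12 below the other controls in these long genes. In the MCKO group, replicate 3 stood 0.095 below and replicate 1 stood 0.059 above the other MCKO libraries. The part of transcript length in the Bmpr2 values was not tested.

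Levels of different genes were compared per kilobase of the longest protein-coding transcript, scaled to the same total in every library. On that scale Bmp7 made up 50.1% of the summed level of the 5 ligands in controls and 52.3% in MCKO. In controls its level of 144 ± 2.39 (SD, n = 3) was followed by Bmp4 at 55.4 ± 1.89 and Bmp5 at 54.6 ± 5.02, which overlapped, then by Bmp2 at 28.2 ± 1.87 and Bmp6 at 5.32 ± 0.470. In MCKO Bmp5 stood before Bmp4, at 54.8 ± 3.17 and 50.3 ± 1.31, and again these overlapped. No other neighbours in the ligands' order overlapped in either group. Bmp6 stayed the lowest ligand, at 9.59 ± 0.459 in MCKO.

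The receptors kept 1 order in both groups, and none of the neighbours overlapped. Bmpr1a led with 78.0 ± 7.11 (SD, n = 3) in controls and 118.5 ± 7.70 in MCKO. Acvr1 followed with 40.7 ± 1.58 and 34.9 ± 1.39, and Bmpr2 with 25.6 ± 5.34 and 27.7 ± 2.56. Acvrl1 had 5.63 ± 0.384 and 9.5 ± 1.06. Bmpr1b was last with 3.30 ± 0.554 and 0.667 ± 0.0770, or 2.15% and 0.348% of the receptors' summed level. The sums of the 5 ligands were 288 ± 4.86 in controls and 305 ± 7.68 in MCKO, and those of the 5 receptors 153 ± 14.0 and 191 ± 10.5.

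Ratios between members of 1 role do not depend on how libraries are scaled, and 3 were compared. Bmpr1a exceeded Bmpr1b per kilobase 21.2-, 26.8- and 23.8-fold in the controls and 180.2-, 207-, and 152-fold in the MCKO libraries. The size of these folds depends on the transcript length used. The longest transcripts were 5956 bases for Bmpr1a and 5349 for Bmpr1b, and the mean protein-coding lengths 2322.5 and 3392.5. The log2 difference between the groups does not depend on length. The log2 ratio of Bmpr1b to Bmpr1a counts was lower in MCKO by a difference of -2.91, with a mean of -4.73 ± 0.17 in controls and -7.63 ± 0.22 in MCKO (SD, n = 3; exact 2-sided permutation p = 0.1). For Acvrl1 over Acvr1 the per-kilobase ratio was 0.148, 0.145 and 0.123 in controls and 0.235, 0.271 and 0.312 in MCKO. Bmp2 over Bmp4 went from 0.508, 0.471 and 0.548 to 0.641, 0.615 and 0.598. In all 3 the groups did not overlap, and each exact permutation p was 0.1, which is the smallest that 3 libraries against 3 allow and stayed 0.1 after adjustment over the 3.

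**Figure D3:**
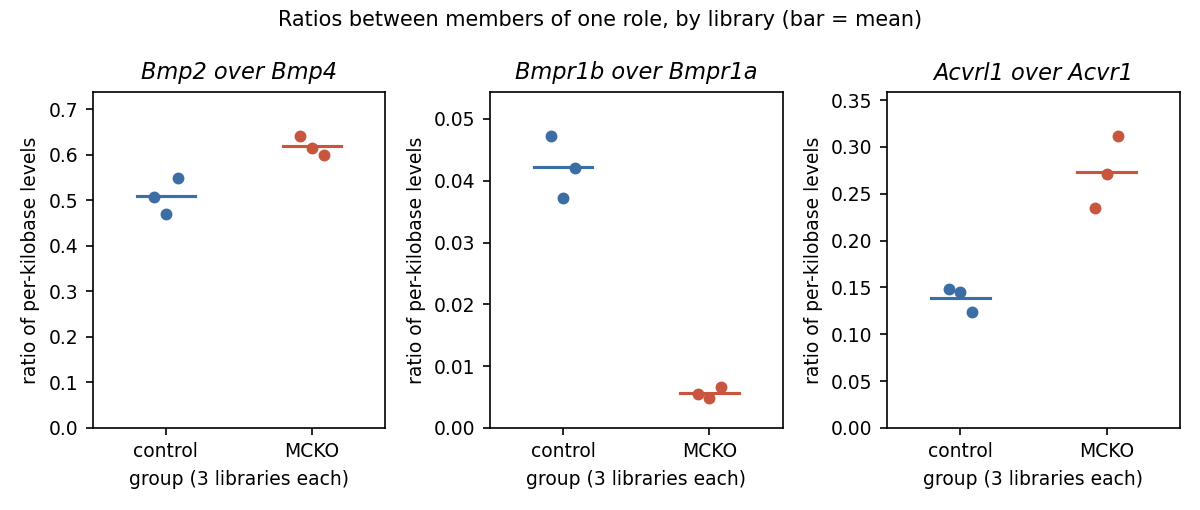
Ratios of per-kilobase levels in each library for Bmp2 over Bmp4, Bmpr1b over Bmpr1a and Acvrl1 over Acvr1, each axis from 0, with group means as bars. The Bmpr1b ratio is near 0 in all MCKO libraries, and the other ratios are higher in all 3 MCKO libraries than in all 3 controls.

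The rest of the pathway was read from 5 lists of 51 genes in all, of which 45 were tested. Of these, 23 rose and 9 fell, beside 58.4% called among all genes, and their median log2 fold change was 0.23 beside 0.00. Among 8 SMADs and their regulators, 7 rose and none fell, with a median of 0.37. Smad5 was not called (log2 fold change -0.13, SE 0.055, edgeR adjusted p = 0.0585). It held 114, 108 and 123 CPM in controls and 105, 99.5 and 97.0 CPM in MCKO, with no overlap. Smad7, an inhibitory SMAD that BMP and TGF-beta signals induce, held 35.3, 30.9 and 33.5 CPM in controls and 58.7, 59.7 and 58.7 CPM in MCKO (log2 fold change 0.89, SE 0.056, edgeR adjusted p = 1.36e-06). Smad4, the partner of all receptor-activated SMADs, rose by 0.53 (SE 0.045) and Smad1, a direct substrate of BMP receptors, by 0.43 (SE 0.068).

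Co-receptors and extracellular modulators differed in both directions. Of 8 activin type II receptors and co-receptors, 5 rose and 1 fell, with a median of 0.25, although without control replicate 1 the number called was 3. Bambi, a decoy receptor that lacks a kinase, had 108 ± 4.76 CPM (SD, n = 3) in controls and 148 ± 1.81 CPM in MCKO. The co-receptor gene Rgma went from 1.67 ± 0.132 to 3.20 ± 0.362 CPM, while Hjv, hemojuvelin, went from 13.6 ± 0.494 to 7.18 ± 0.463 CPM. Of 14 tested modulators, 6 rose and 4 fell, with a median of 0.25. Fstl3, a follistatin-like binding protein of activins, went from 2.99 ± 0.220 to 9.11 ± 1.22 CPM and Nbl1, a secreted BMP antagonist, from 2.50 ± 0.207 to 6.13 ± 0.192 CPM. Twsg1, which binds BMPs together with chordin, fell from 78.8 ± 1.72 to 49.0 ± 3.10 CPM.

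The other BMP and GDF ligands listed had low counts, and none of those named here exceeded 65 in a library. That list does not hold every remaining ligand of the family. Of 7 listed, 4 passed the filter, 1 rose and 2 fell, and 0 were called when 50 counts in 3 libraries were required. Gdf2, whose product is a ligand of Acvrl1, held 0.815, 0.935 and 1.21 CPM in controls and 0.409, 0.272 and 0.209 CPM in MCKO, and it is made by liver in later life. Gdf6 held 1.74, 1.40 and 2.02 CPM in controls and 0.847, 0.661 and 0.796 CPM in MCKO. Gdf5 had 3, 2 and 0 counts in the controls and 17, 17 and 12 in MCKO.

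Genes that BMP induces in many tissues did not move together. Of 11 tested, 4 rose and 2 fell, with a median log2 fold change of 0.16. The share called was 54.5%, near the 58.4% of all tested genes. Id1 was called higher (log2 fold change 0.58, SE 0.14) and Id4 lower (-0.30, SE 0.11), while Id2 and Id3 were not called. Tbx2 and Tbx3, repressors of chamber muscle genes in the atrioventricular canal, rose, Tbx2 from 28.2 ± 4.5 to 50.6 ± 5.98 CPM (SD, n = 3) and Tbx3 from 25.0 ± 1.41 to 35.1 ± 2.47 CPM. Msx1, a homeobox gene of cushion mesenchyme, went from 13.3 ± 1.49 to 4.52 ± 0.460 CPM, with a log2 fold change of -1.49 (SE 0.12, edgeR adjusted p = 7.38e-06). The cushion mesenchyme markers fell in the same libraries, and their part in the Msx1 values was not tested. Msx2, of the same target list, was called higher (log2 fold change 0.27, SE 0.074, edgeR adjusted p = 0.0123).

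**Figure D4:**
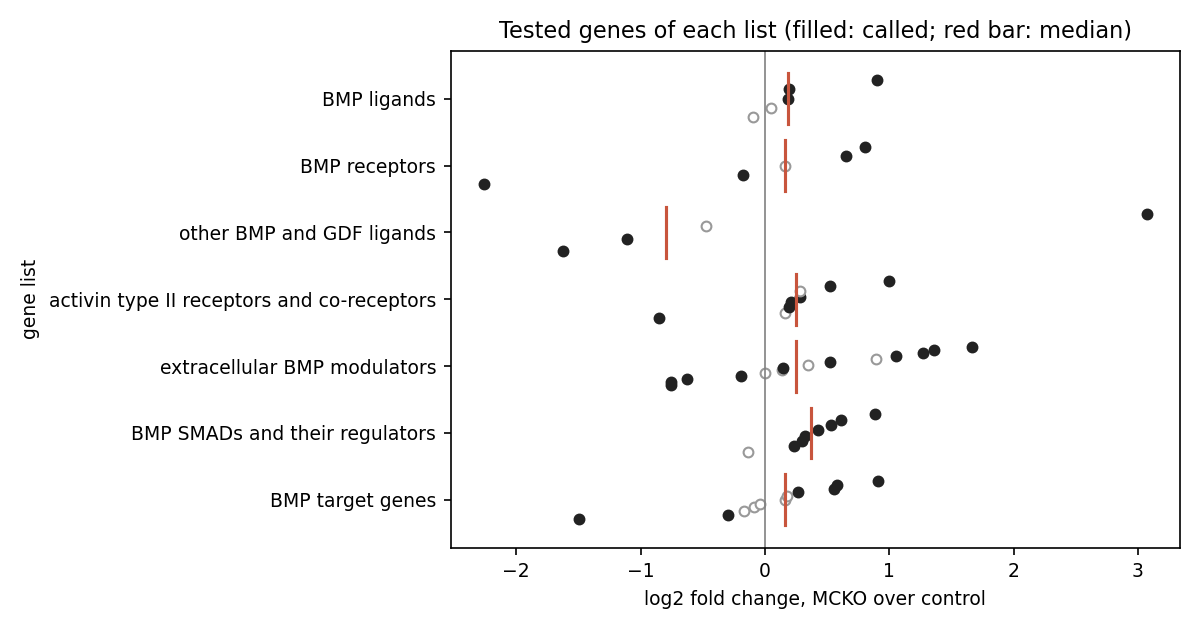
Log2 fold change of each tested gene in the member lists and the 5 pathway lists, filled where called, with list medians as red bars. The SMAD list has 7 called genes above 0 and none below, and the other pathway lists hold called genes on both sides.

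Markers of several other cell types moved with the groups. All 9 primitive red cell markers rose, with a median of 1.07 and a sum of 2950 to 3148 CPM in controls and 5975 to 6328 CPM in MCKO. All 10 tested markers of pharyngeal endoderm and epithelium rose, with a median of 2.52. The 11 listed summed to 154 to 168 CPM in controls and 264 to 285 CPM in MCKO. Most of that sum was Krt8, with means of 109 CPM in controls and 165 CPM in MCKO, and Krt18, with 50.5 and 90.5 CPM. Epcam had means of 0.898 CPM in controls and 5.41 CPM in MCKO. Liver bud markers summed to 50.1 to 57.4 CPM in controls and 27.2 to 32.1 CPM in MCKO, and Afp, alpha-fetoprotein, was at 0 to 0.175 CPM in MCKO. Most of the liver bud sum was Dlk1, which was not called, with means of 31.4 CPM in controls and 25.4 CPM in MCKO. Of 5 tested neural crest markers 1 rose and 1 fell. When 50 counts in 3 libraries were required, 6 pharyngeal and 1 neural crest marker were called. Foxd3, a neural crest factor, was at 0 in all 6 libraries. The part of these tissues in the members' values was not tested.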

How the data were processed

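The deposited table gives whole-number estimated counts for each Ensembl gene in 1 column per library, scaled for neither depth nor length. Per the submitters' processing notes, kallisto and the build mm10 were used; version, transcript set, strand setting and rounding are not given. Per the labels' protocols, libraries came from a stranded TruSeq mRNA kit. The MCKO columns differ from the sample titles by a missing M, and the remaining letters and number gave the match. Symbols, positions and lengths came from GENCODE M21 on GRCm38, promoters from RefSeq.

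Genes kept by filterByExpr were fitted with edgeR 4.0.16 (R 4.3.3), TMM scaling and the robust quasi-likelihood with group as the only term, 2-sided, Benjamini-Hochberg over 14697 genes, checked on simulated data. Alternatives included DESeq2 1.42.0. Ratios used exact permutation tests (scipy 1.17.1). No member had a near-identical copy (minimap2 2.31, 95% identity over 80% of length). Named are Cdc42, all members, up to 3 called genes per pathway list by smallest p, and markers at 0 or among the 2 smallest p of their list, not all of which are printed. Txndc5 and Gm26903 were added because they overlap a member. Smad5, Tek, Npr3, Krt8, Dlk1, Msx2, Id1, Id2, Id3 and Id4 were added to show the spread or make-up of their lists. Members and lists were chosen with earlier results of these data known. Libraries of a group may share hearts or litters, so p-values cover the spread between these libraries alone, and that may be technical.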

Additional observations from a re-analysis of the deposited data

How the results depend on the processing

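The number of members called was 7 to 8 under 12 alternative settings, 4 to 6 higher and 2 to 3 lower. Bmp6, Bmp7, Bmpr1a, Bmpr1b, Acvr1 and Acvrl1 kept their direction and their call in all 12. With library totals only, Bmp2 was no longer called (0.12, adjusted p = 0.069), Bmp4 was (-0.15, adjusted p = 0.03), and Bmp5 turned to -0.011. Leaving out each library in turn gave Bmp5 from -0.0027 to 0.10, Bmpr2 from 0.07 to 0.33 (called only without control replicate 3), and 3 to 6 calls among activin type II receptors and co-receptors. Requiring 50 counts in 3 libraries left 0 calls among the other BMP and GDF ligands, 6 among pharyngeal, 2 among liver bud and 1 among neural crest markers, by testing fewer genes. The order of levels held for at least 8 of 10 members. With the replicate block, 7 members were called. Deviations of same-numbered libraries correlated at -0.005, 0.022 and -0.13, which shows no pairing by number. With 3 libraries per group, these correlations cannot tell whether same-numbered libraries share a litter or batch. Depth limits the GDF ligands, at under 3 CPM.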

Other observations

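Genes with the closest pattern to 2 members were found by Pearson correlation of log2 CPM over the 6 libraries. For Bmp6 they were Lrrc8d (r = 0.9995) and Tlr6 (r = 0.998), and for Bmpr1b Apoo (r = 0.9997) and Spc25 (r = 0.9997). These are descriptions over libraries that fall into 2 groups: 1685 other tested genes exceeded r = 0.95 with Bmp6 and 2481 with Bmpr1b.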
